A study of Mus musculus with 24 samples.

Results

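Mitochondrial ribosomal proteins are encoded in the nucleus by the Mrpl genes (large subunit) and the Mrps genes (small subunit), and 78 protein-coding genes of this symbol pattern were found among 55421 genes counted, of which 21976 are protein-coding. Of the 78, 49 carry an Mrpl and 29 an Mrps symbol. By their place in the ribosome, 51 belong to the large subunit, 26 to the small subunit and 1, Mrps36, to neither. Mrps30 and Mrps18a have a small subunit symbol but sit in the large subunit, and the product of Mrps36 is a component of the oxoglutarate dehydrogenase complex. The gene group was chosen with earlier results of these data known, and Mrpl11 and Mrpl24 were singled out, selected on their CPM levels across the 6 groups of libraries, so values of these 2 genes are given as a description with no p. They remain in the counts over all members, and where a count includes them among few genes this is said and nothing is read from their part in it.

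RNA was sequenced from sorted epithelial cells of small intestinal crypts of 8 mice, 4 of each genotype, in 24 libraries. The hom animals (BN45, BO25, BO57 and BP04) carried Setd1aFC/FC with Lgr5-eGFP-CreERT2, and the het control animals (BN44, BO27, BO58 and BP03) carried Setd1aFC/+ with the same transgene. Setd1a encodes a histone methyltransferase. All 8 animals received 1 mg of tamoxifen by intraperitoneal injection on 3 consecutive days, so the controls also carried 1 FC allele, Cre and the drug. Cells were taken 4 days after induction and sorted by EpCAM, CD24 and CD45 staining, and each animal gave 1 Paneth (pc), 1 stem (sc) and 1 transit-amplifying (TA, ta) library. The Cre is driven from Lgr5, which marks crypt base stem cells, and the share of cells in which the allele was deleted was not measured here. Ages were not given in the sources used here.

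Library totals ran from 24.73 to 47.05 M counts. Setd1a itself, counted over all its exons and so no check of the deletion, had between 4.86 and 7.31 CPM (counts scaled to a common library size with TMM factors) in hom Paneth libraries against 6.36 to 15.1 CPM in het ones, 3.73 to 6.92 against 3.99 to 7.08 CPM in stem libraries, and 4.52 to 6.62 against 3.43 to 6.74 CPM in TA libraries. The 7 stem markers summed to 27290 to 45503 CPM in stem libraries and to at most 10100 CPM in the others, and the 7 Paneth markers to between 68966 and 845776 CPM in Paneth libraries and at most 5132 CPM elsewhere. Paneth libraries also held transcripts of other cells: all 7 enteroendocrine markers were above 1 CPM there and summed to 3425 to 7632 CPM, and all 6 tuft cell markers summed to 1305 to 3135 CPM. The 6 immune markers, 3 of them above 1 CPM by group mean in each genotype, summed to 89.3 to 233 CPM there. Elsewhere the immune sum was at most 4.98 CPM. The 6 goblet cell markers summed to 1198 to 17512 CPM in Paneth libraries, a range that overlapped that of TA libraries. The 5 cycling markers summed to 248 to 513 CPM in Paneth libraries, against 942 to 1365 CPM in stem and TA libraries together, and stem and TA ranges overlapped.

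Mitochondria keep their own ribosome, which translates the few messages encoded by mitochondrial DNA, all of them for membrane subunits of the oxidative phosphorylation complexes. Its RNA is made inside the mitochondrion, whereas each of its proteins is made in the cytosol and imported. In the crypt, stem and transit-amplifying cells divide rapidly, and Paneth cells are long-lived secretory neighbours of the stem cells that release antimicrobial peptides. Relative to its bacterial ancestor the mitochondrial ribosome has less RNA and more protein: 46 of the 78 genes encode a protein with a bacterial counterpart and 31 a protein particular to mitochondrial ribosomes.

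Upstream sequence is shown for 5 genes picked by their values. Mrpl11, Mrpl24, Mrpl2 and Mrpl52 had the 4 largest fold changes of hom over het in stem cells, where no member passed the edgeR threshold. Of these, Mrpl11 and Mrpl24 were selected on these levels. Mrpl12 had the smallest p for Paneth over TA cells in het animals. RefSeq promoter entries (GRCm38.p6, the build of the counts) matched 69 of the 78 genes with 75 starts, and 63 of the 75 starts were found in a GENCODE M21 transcript of the gene. The stretches below are those without exon bases in the 250 bases before the start, all on the plus strand, 5′ to 3′. They are chr19:4962056-4962146 (Mrpl11), chr3:87919294-87919505 (Mrpl24), chr17:46646023-46646228 (Mrpl2), chr14:54426659-54426908 (Mrpl52) and chr11:120484387-120484612 (Mrpl12). Capitals mark an ETS-type match (CCGGAAG) in Mrpl52 and an NRF1-type match (GCGCA, any base, GCGC) in Mrpl12. Both matches lie on the minus strand, so the capitals show the reverse complement of the motif.
Mrpl11: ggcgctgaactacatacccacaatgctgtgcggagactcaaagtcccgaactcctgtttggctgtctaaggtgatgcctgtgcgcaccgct
Mrpl24: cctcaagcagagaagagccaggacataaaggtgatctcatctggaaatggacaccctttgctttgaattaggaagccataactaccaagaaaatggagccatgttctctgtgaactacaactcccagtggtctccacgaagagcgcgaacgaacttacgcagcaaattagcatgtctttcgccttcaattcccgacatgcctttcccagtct
Mrpl2: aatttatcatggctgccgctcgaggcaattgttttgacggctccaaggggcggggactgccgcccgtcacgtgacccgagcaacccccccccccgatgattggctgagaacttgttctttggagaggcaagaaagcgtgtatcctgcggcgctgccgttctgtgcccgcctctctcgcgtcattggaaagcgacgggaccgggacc
Mrpl52: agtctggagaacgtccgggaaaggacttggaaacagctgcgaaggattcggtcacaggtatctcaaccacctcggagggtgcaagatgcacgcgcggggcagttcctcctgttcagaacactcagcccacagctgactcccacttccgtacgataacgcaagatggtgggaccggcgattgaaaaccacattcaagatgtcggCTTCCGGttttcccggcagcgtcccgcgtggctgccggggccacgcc
Mrpl12: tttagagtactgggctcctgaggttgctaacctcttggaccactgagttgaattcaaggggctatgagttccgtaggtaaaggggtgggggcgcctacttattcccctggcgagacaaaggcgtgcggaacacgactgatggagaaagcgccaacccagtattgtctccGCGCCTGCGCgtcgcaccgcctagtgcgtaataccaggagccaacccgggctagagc

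Over the 250 bases before each start, both strands searched, the ETS-type motif stood in 24% of the 75 member promoters, against 6.91% of all 32851 RefSeq promoters in the table and 9.28% of the 20140 promoters of protein-coding genes. The NRF1-type motif stood in 13.3% of member promoters, against 3.74% of all promoters and 5.35% of protein-coding ones. A YY1-type motif (AAGATGGC) stood in 5.33% of member promoters, against 1.56% of all promoters and 1.49% of protein-coding ones. An SP1-type motif (GGGCGG) stood in 49.3% of member promoters, against 32.7% of all promoters and 44.1% of protein-coding ones, which is near the share in members. Matches of different motifs overlapped in 1 member promoter, that of Mrpl17. The promoters of Mrpl11 and Mrpl24 held none of these 4 strings in that window, and that of Mrpl2 held the SP1 string only. These matches describe the letters and not binding. Member promoters had a median GC content of 58.4% and a median of 17 CpG dinucleotides, against 56.0% and 10 for protein-coding genes, and these compositions differ in the same direction as the motif shares. A protein-coding gene starting within 1000 bases in the opposite direction was found for 18 of the 78 genes, 23.1%, against 6.78% of protein-coding genes. Among these pairs, Mrpl2 and Klc4 start 207 bases apart, Mrpl10 and Lrrc46 153 bases apart, and Mrps5 and Zfp661 128 bases apart. Mrpl11, Mrpl24 and Mrpl52 have no such neighbour. The median log2 fold change of hom over het was -0.13 in stem cells for the 18 genes and -0.12 for the 59 tested without a neighbour. In TA cells these medians were -0.09 and -0.07, and in Paneth cells 0.10 and 0.08.

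Counts came from all but 1 member. Mrpl53 had 0 counts in every library. Of its exon bases, 88.0% are shared with Gm42688 and Ccdc142os, and the deposited counting took no fragments that overlap several genes, so its level is not known from these counts. In all, 32 members share exon bases with another gene, and 3 of them (Mrpl53, Mrps34 and Mrps25) over at least 50% of those bases, so that their counts are uncertain. Among genes named below, Mrpl19 shares 36.0% with Gcfc2, Mrps18b 30.5% with Gm16279 and Mrps27 24.2% with 6430562O15Rik. Mrpl24 shares 26.3% with Rrnad1 and Mrpl10 shares 14.1% with Gm11574. These other genes all lie on the opposite strand, and counting was unstranded. A further 5 matches of the symbol pattern are processed pseudogenes and were left out: Mrpl23-ps1 averaged 62.0 ± 19.9 CPM against 4.23 ± 1.58 CPM for Mrpl23 itself, and Mrps36-ps1 averaged 38.5 ± 12.9 CPM against 18.2 ± 5.13 CPM for Mrps36 (SD, n = 24 libraries), so the counts of these genes may be split with near copies. The other 77 members passed the filter on low counts in every comparison.

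Expressed per length, the members were abundant transcripts. The median of their mean levels over 24 libraries was 28.5 RPKM (CPM divided by the exon length in kilobases), against 6.01 RPKM for the 9507 protein-coding genes with at least 1 RPKM, and 74 of the 78 stood above that median. The highest were Mrpl18 at 152 ± 51.2 RPKM, Mrpl28 at 146 ± 46.9, Mrpl12 at 118 ± 47.2, Mrps28 at 108 ± 43.1 and Mrpl36 at 104 ± 35.5 RPKM (SD, n = 24), and these 5 neighbours in the order differed by less than their spread. Of the members that were counted, the lowest were Mrpl23 at 0.866 ± 0.324 RPKM, Mrps5 at 3.30 ± 1.16, Mrpl33 at 5.65 ± 1.46 and Mrpl48 at 6.58 ± 1.68 RPKM. Among members whose symbols hide their role, 1 stood above the member median and the others below it: Mrps18c, in the small subunit, stood at 63.6 ± 20.7 RPKM, its paralog Mrps18a, in the large subunit, at 23.6 ± 6.73, and their paralog Mrps18b, in the small subunit, at 19.3 ± 7.05 RPKM. Mrpl58, a peptidyl-tRNA hydrolase built into the large subunit, had 25.4 ± 8.26 RPKM, Mrpl57 18.7 ± 4.81, Mrps30 12.5 ± 4.62 and Mrps36 14.3 ± 4.02 RPKM. The 10 members with most counts carried 28.4% of the summed member CPM.

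**Figure D1:**
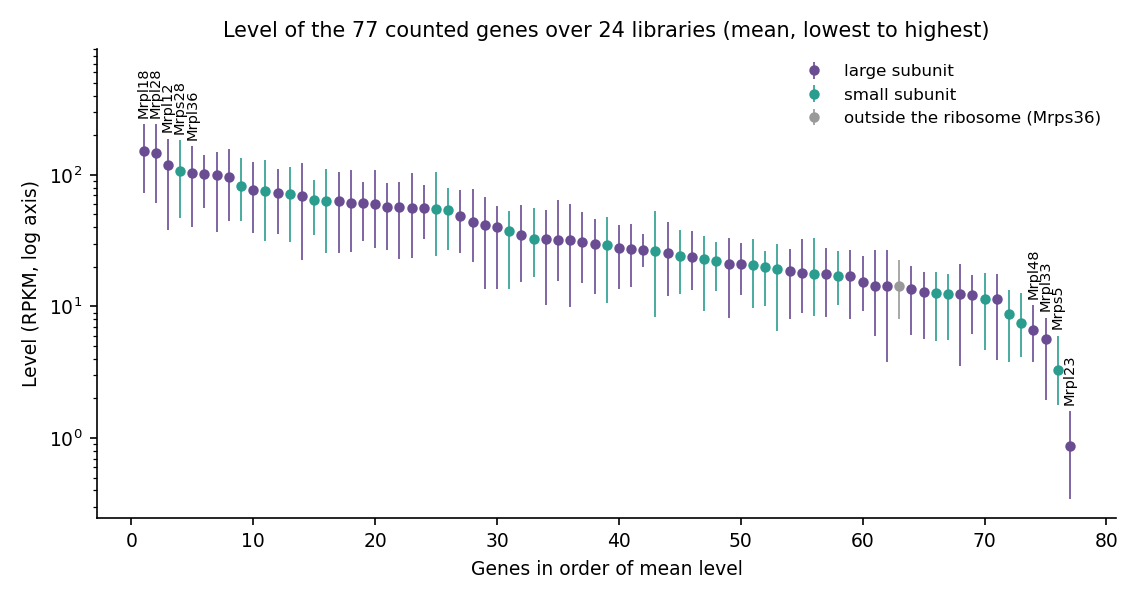
Mean level in RPKM on a log axis (points) of the 77 counted genes in order, with the lowest and highest of 24 libraries (lines), coloured by subunit. Large and small subunit genes mix along the whole order, from Mrpl18 at 152 RPKM down to Mrpl23 at 0.866 RPKM.

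Together the 78 genes took the smallest share of counts in Paneth libraries and the largest in TA libraries. In hom animals (BN45, BO25, BO57, BP04) the share was 0.166, 0.373, 0.492 and 0.485% in Paneth libraries, 0.581, 0.710, 0.851 and 0.819% in stem libraries, and 0.761, 0.814, 1.00 and 1.06% in TA libraries. In het animals (BN44, BO27, BO58, BP03) it was 0.238, 0.351, 0.556 and 0.398% in Paneth, 0.711, 0.856, 0.949 and 0.937% in stem, and 0.798, 0.964, 1.06 and 1.08% in TA libraries. In each of the 8 animals the order was Paneth, then stem, then TA. The libraries of BN45 and BN44 had the lowest share of their group in all 3 fractions, and those of BO25 and BO27 the next lowest, whereas the highest animal was not the same in all fractions. The share depends on the most abundant genes, which differ between fractions: the 10 highest took 27.2 to 57.2% of counts in hom and 18.8 to 43.6% in het Paneth libraries, against 13.1 to 23.7% in stem and TA libraries. Without those 10 genes in the total, the share was 0.608 ± 0.155% (hom) and 0.566 ± 0.114% (het) in Paneth, 0.939 ± 0.168% (hom) and 1.05 ± 0.154% (het) in stem, and 1.08 ± 0.192% (hom) and 1.14 ± 0.155% (het) in TA libraries (SD, n = 4 each).

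**Figure D2:**
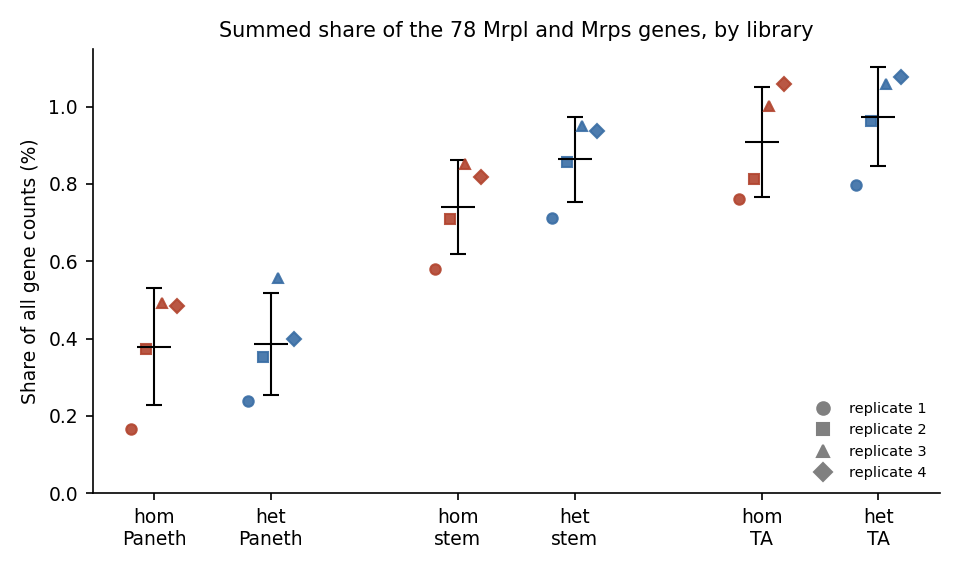
Share of all gene counts in percent taken by the 78 genes, 1 point per library, with mean and SD (n = 4 per group) and hom left of het in each fraction. Paneth libraries lie between 0.166 and 0.556%, below every stem and TA library, and replicate 1 is lowest in each group.

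With TMM scaling, which sets each library against the bulk of its genes, Paneth cells still had the lowest levels of these genes, and most of both subunits took part. The summed level was 4981 ± 1003 (hom) and 4578 ± 826 CPM (het) in Paneth, 6635 ± 1294 (hom) and 7419 ± 1246 CPM (het) in stem, and 7992 ± 1645 (hom) and 8526 ± 1326 CPM (het) in TA libraries (SD, n = 4 each). By group means, Paneth cells had the lowest level of 62 of the 77 counted genes in hom animals and of 75 in het animals, and TA cells the highest level of 66 in hom and of 65 in het animals. As these are bulk libraries, fewer cells of a type and less RNA per cell cannot be told apart.

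Between Paneth and TA libraries of hom animals, edgeR called 36 of 77 members lower in Paneth cells (46.8%, where 12.4% of all genes tested were called lower) and 0 higher (16.4% of all genes), at an adjusted p below 0.05. In het animals, which share no library with hom animals, it called 45 lower (58.4%, against 11.9% of all genes) and 0 higher (17.4%). The median log2 fold change of the 77 members was -0.58 in hom, where that of all genes tested was 0.08, and -0.83 in het, where that of all genes was also 0.08. The sign was negative for 73 members in hom (94.8%, against 46.7% of all genes) and 76 in het animals (98.7%, against 47.2%). Both subunits took part: the median was -0.57 for 50 large and -0.61 for 26 small subunit genes in hom animals, and -0.82 and -0.90 in het animals. Of the genes called, 31 were called in both genotypes, 86.1% of the hom and 68.9% of the het list. Across the 77 genes the hom and het fold changes had a Pearson r of 0.72 and a Spearman rho of 0.68, which describes genes that share libraries and are not independent. In each of the 4 animals the Paneth library was below the TA library for 63 genes in hom (81.8%, against 25.9% of all genes) and 70 in het animals (90.9%, against 26.1%).

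Mrpl12, a protein of the flexible stalk that recruits translation factors, which is also reported to bind the mitochondrial RNA polymerase, had 85.5, 126, 80.3 and 84.7 CPM in hom Paneth libraries against 246, 238, 255 and 237 CPM in hom TA libraries (log2 fold change -1.34, SE 0.16, edgeR adjusted p = 0.00044). In het animals it had 73.3, 58.9, 117 and 107 CPM in Paneth and 264, 264, 288 and 276 CPM in TA libraries (-1.59, SE 0.23, adjusted p = 0.00096). The highest Paneth library lay well under the lowest TA library in both genotypes. Mrps22, a small subunit protein with no bacterial counterpart, had 44.2, 65.2, 62.8 and 51.0 CPM in hom Paneth against 154, 125, 171 and 170 CPM in hom TA libraries (-1.45, SE 0.16, adjusted p = 0.00031). Its het libraries had 44.1, 42.5, 82.9 and 53.4 CPM in Paneth and 154, 154, 191 and 183 CPM in TA cells (-1.59, SE 0.24, adjusted p = 0.0011). Here too no library of one fraction reached the other. Mrps27, which carries pentatricopeptide repeats, averaged 25.3 ± 6.88 against 58.8 ± 18.6 CPM in hom and 29.0 ± 7.16 against 84.7 ± 17.7 CPM in het animals (SD, n = 4 each). Mrpl9, Mrpl19, Mrps9, Mrps31 and Mrps30 were also called lower in both genotypes, with log2 fold changes between -1.23 and -0.80. Mrps18b fell as well, by 1.01 in hom and 1.20 in het on the log2 scale (adjusted p = 0.016 and 0.0072, edgeR). Mrps36, which is not in the ribosome, had -0.48 in hom and -0.73 in het and passed in neither (adjusted p = 0.13 and 0.067, edgeR). The 4 genes above 0 in hom animals were Mrpl52 (0.30 in hom, 0.04 in het; the het value was -0.29 without the Paneth library of BN44), Mrpl33 (0.38 in hom, -0.21 in het), Mrpl54 (0.22 in hom, -0.20 in het) and Mrpl11 (0.33 in hom, -0.87 in het), and Mrpl24 had -0.20 in hom and -0.65 in het. Beside these differences the cycling marker sum was lower in Paneth cells and the enteroendocrine, tuft and immune sums were higher, as given above. Their part in the result was not tested.

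**Figure D3:**
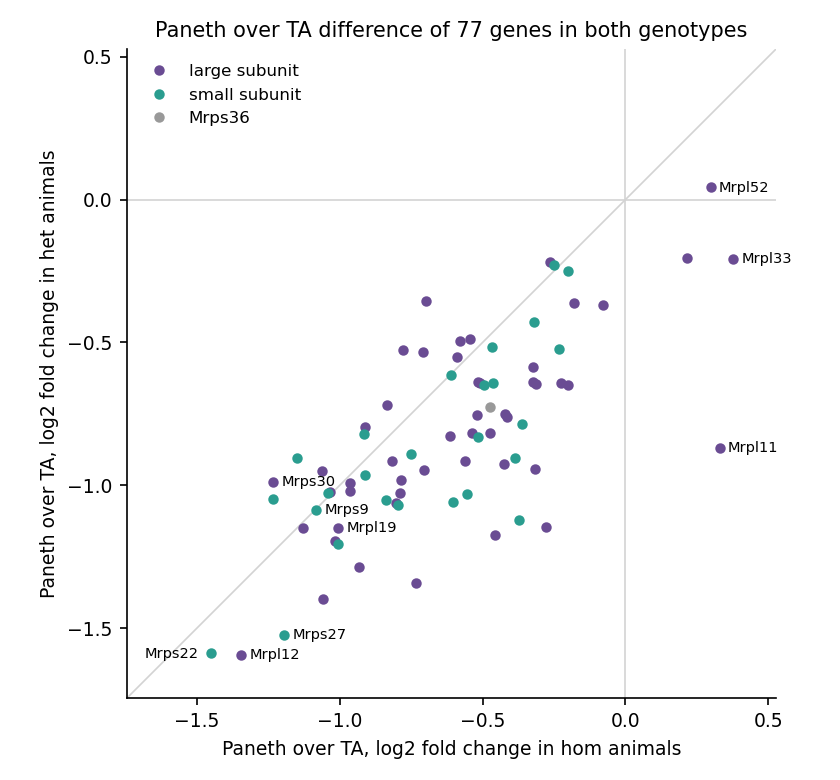
Log2 fold change of Paneth over TA libraries for 77 genes in hom animals (horizontal) against het animals (vertical), coloured by subunit, with a line of equal values. In the plot 73 genes are negative in both genotypes, Mrps22, Mrpl12 and Mrps27 are among the farthest down, and Mrpl11 stands apart at 0.33 in hom and -0.87 in het.

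Between Paneth and stem libraries, 18 members were called lower in Paneth cells of hom animals (23.4%, against 13.3% of all genes) and 2 higher (2.6%, against 17.4%), and 27 lower in het animals (35.1%, against 11.1%) and 0 higher (17.3%). The median log2 fold change was -0.30 in hom, where it was 0.06 for all genes, and -0.62 in het, where it was 0.05, and the sign was negative for 57 members in hom (74%, against 47.6%) and 74 in het animals (96.1%, against 48.1%). Of the genes called lower, 12 were called in both genotypes, 66.7% of the hom and 44.4% of the het list. Leaving out the het Paneth library of BN44 or the het stem library of BO58 or BP03 took the het count to 16, 17 or 15. Mrpl50, a large subunit protein particular to mitochondria, averaged 128 ± 52.5 against 249 ± 42.6 CPM in hom (-0.94, SE 0.25, edgeR adjusted p = 0.017) and 106 ± 30.0 against 270 ± 32.5 CPM in het animals (-1.33, SE 0.22, adjusted p = 0.0016). Mrps35 had 58.4 ± 7.20 against 123 ± 2.06 CPM in hom (-1.04, SE 0.14, adjusted p = 0.00058) and 64.2 ± 18.3 against 126 ± 7.71 CPM in het animals (-0.95, SE 0.21, adjusted p = 0.0078). Mrps27, Mrps22, Mrps9, Mrps31, Mrpl12 and Mrpl19 were called lower in both genotypes, with log2 fold changes between -1.39 and -0.85. One of the 2 genes called higher in hom Paneth cells was Mrpl52, named after its values were seen, with 70.9, 41.7, 30.6 and 31.2 CPM against 23.1, 24.8, 20.1 and 21.2 CPM in hom stem libraries (1.02, SE 0.30, adjusted p = 0.029). In het animals it had 55.6, 32.8, 17.4 and 32.0 CPM in Paneth and 63.1, 37.5, 38.3 and 31.5 CPM in stem libraries, where the ranges overlap. The other gene in that count was Mrpl11, which was selected on these levels and is given as a description, at 44.8 ± 4.32 CPM in hom Paneth and 20.8 ± 8.94 CPM in hom stem libraries. The count of genes called higher was 1 without the stem library of BN45, BO57 or BP04 or the Paneth library of BN45 or BO25, and 3 without the stem library of BO25.

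Stem and TA libraries were closer. The sign was negative for most members, with lower levels in stem cells for 71 of 77 in hom (92.2%, against 49.5% of all genes) and 65 in het animals (84.4%, against 48.1%), and median log2 fold changes of -0.30 and -0.21, where those of all genes were 0.01 and 0.02. In every animal, 50 members were lower in stem than in TA cells among hom (64.9%, against 18.1% of all genes) and 41 among het animals (53.2%, against 18.5%). However, edgeR called 1 member lower in each genotype (1.3%, against 2.65% of all genes in hom and 3.64% in het) and 0 higher (2.07% and 2.76%). With the animal as a block, since each animal gave both libraries, the count was 18 in hom (23.4%, against 5.07%) and 12 in het animals (15.6%, against 6.32%), still with 0 higher (3.84% and 5.04%). The gene called in hom animals was Mrpl52, with 22.3 ± 2.09 CPM in stem cells, against 36.7 ± 1.02 CPM in TA cells (-0.73, SE 0.14, adjusted p = 0.020). In het animals it was Mrpl12, with 201 ± 11.9 CPM in stem cells, against 273 ± 11.6 CPM in TA cells (-0.45, SE 0.10, adjusted p = 0.029). In hom animals Mrpl12 had a similar difference, 183 ± 9.23 against 244 ± 8.57 CPM, that did not pass (-0.43, SE 0.11, adjusted p = 0.052). Without 1 library the count was 0 to 2 in hom animals, with 0 when the stem library of BO57 or BP04 or the TA library of BO25 or BO57 was left out, and 0 to 1 in het animals, with 1 only when the TA library of BN44 or the stem library of BP03 was left out. Beside this difference, the 6 goblet cell markers, all above 1 CPM by group mean in both fractions, summed to 107 to 1095 CPM in hom and 116 to 628 CPM in het stem libraries, against 4427 to 11349 CPM in hom and 5109 to 11840 CPM in het TA libraries. The 6 enterocyte markers, likewise all above 1 CPM, summed to 791 to 1039 CPM in hom and 874 to 1510 CPM in het stem libraries, against 1678 to 2163 CPM in hom and 1367 to 2724 CPM in het TA libraries, and the part of either list in the result was not tested. Mrpl4, Mrps23, Mrps26 and Mrps7 had log2 fold changes between -0.54 and -0.40 in het animals and did not pass without the block (adjusted p between 0.051 and 0.11, edgeR), whereas Mrpl33, Mrpl52, Mrpl50 and Mrpl23 were positive there (0.14 to 0.35).

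The knockout was compared with its control within each fraction. In stem cells, most members were somewhat lower in hom than in het libraries, but no member passed the edgeR threshold. The count was 0 lower (0.0125% of all genes, 2 of 16056) and 0 higher (0%). The sign was negative for 61 of 77 members (79.2%, against 49.5% of all genes), and the median log2 fold change was -0.13, where that of all genes was 0.004. At an unadjusted p below 0.05, 12 members were lower (15.6%, against 4.02%) and 0 higher (2.77%). DESeq2 called 4 members lower (5.19%, against 1.05% of the genes it tested) and 0 higher (0.425%). Both the 12 and the 4 include Mrpl11 and Mrpl24, which were selected on these levels, so neither count is independent of the selection. The other 2 that DESeq2 called were Mrpl2 and Mrpl52. Without the hom stem library of BN45, which had the lowest share of member counts, the median was -0.05, and without the het stem library of BN44 it was -0.23. Large and small subunit genes had medians of -0.13 (41 of 50 negative) and -0.12 (19 of 26 negative), and genes with and without a bacterial counterpart -0.15 and -0.11.

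**Figure D4:**
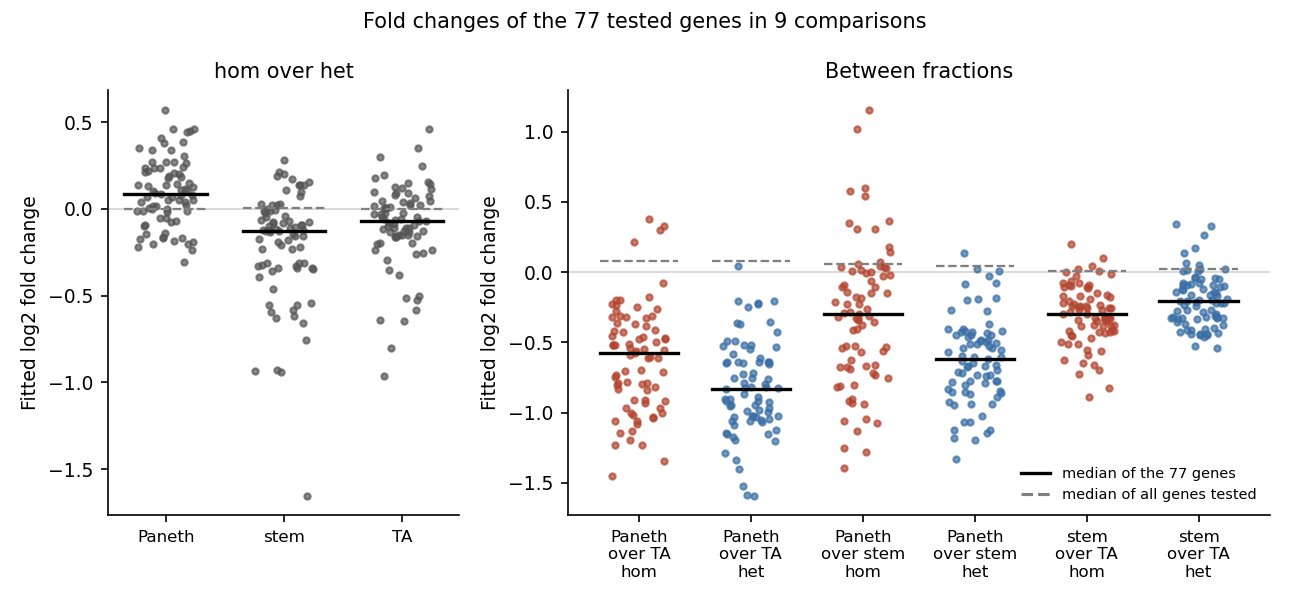
Fitted log2 fold changes of the 77 tested genes in 9 comparisons, 1 point per gene, for hom over het in each fraction (left) and between fractions in hom and het animals (right). Black lines are the medians of the 77 genes and dashed lines those of all genes tested. The black lines stand at -0.13 in stem, -0.07 in TA and 0.08 in Paneth cells for hom over het, and at -0.83 for Paneth over TA in het animals.

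The 4 genes with the largest fold changes all belong to the large subunit, as do 51 of the 78 members. Mrpl11 and Mrpl24 among them were selected on these levels, so nothing is read from the subunit of the 4. Mrpl11, part of the base of the stalk where translation factors dock, had 12.3, 14.2, 25.8 and 30.7 CPM in hom stem libraries, against 47.2, 63.9, 69.6 and 78.7 CPM in het ones, a log2 fold change of -1.66. Every hom library was below every het library. Mrpl24, whose bacterial counterpart starts the assembly of the large subunit, had 34.1, 41.4, 65.6 and 58.6 CPM in hom against 77.2, 86.9, 119 and 96.4 CPM in het stem libraries, a log2 fold change of -0.94. Its groups did not overlap either. Mrpl2, a conserved protein beside the peptidyl transferase centre, had 39.5, 44.9, 61.2 and 62.7 CPM in hom against 90.9, 107, 92.8 and 104 CPM in het stem libraries (-0.93, SE 0.17, edgeR adjusted p = 0.16; DESeq2 adjusted p = 0.00032). Here the gap between the groups was wider than the spread within either. Mrpl52, particular to mitochondria, had 23.1, 24.8, 20.1 and 21.2 CPM in hom against 63.1, 37.5, 38.3 and 31.5 CPM in het stem libraries (-0.94, SE 0.22, edgeR adjusted p = 0.26; DESeq2 adjusted p = 0.014). The het library of BN44 was the highest of all, and the other 3 het libraries were also above every hom library.

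In stem cells the groups did not overlap for 7 members, all lower in hom (9.09%, against 2.93% of all genes), and for 0 higher (1.92%). The 7 include Mrpl11 and Mrpl24, which were selected on these levels, so the count is not independent of the selection. Beside the 4 genes above, the members without overlap were Mrpl10, Mrpl44 and Mrpl33, named here after their values were seen. Mrpl10, which anchors Mrpl12 to the ribosome, averaged 42.5 ± 10.7 against 66.8 ± 9.73 CPM (-0.66, SE 0.20, edgeR adjusted p = 0.46). Mrpl44 averaged 44.4 ± 5.63 against 57.9 ± 2.50 CPM, and Mrpl33 34.4 ± 9.07 against 50.3 ± 5.03 CPM (SD, n = 4 each). In the other direction the highest-ranked were Mrps30 (0.28), Mrpl28 (0.21), Mrpl49 (0.19) and Mrps9 (0.14), with edgeR adjusted p between 0.87 and 0.92 and overlapping groups. The stalk partner Mrpl12 was at 183 ± 9.23 CPM in hom and 201 ± 11.9 CPM in het stem libraries.

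**Figure D5:**
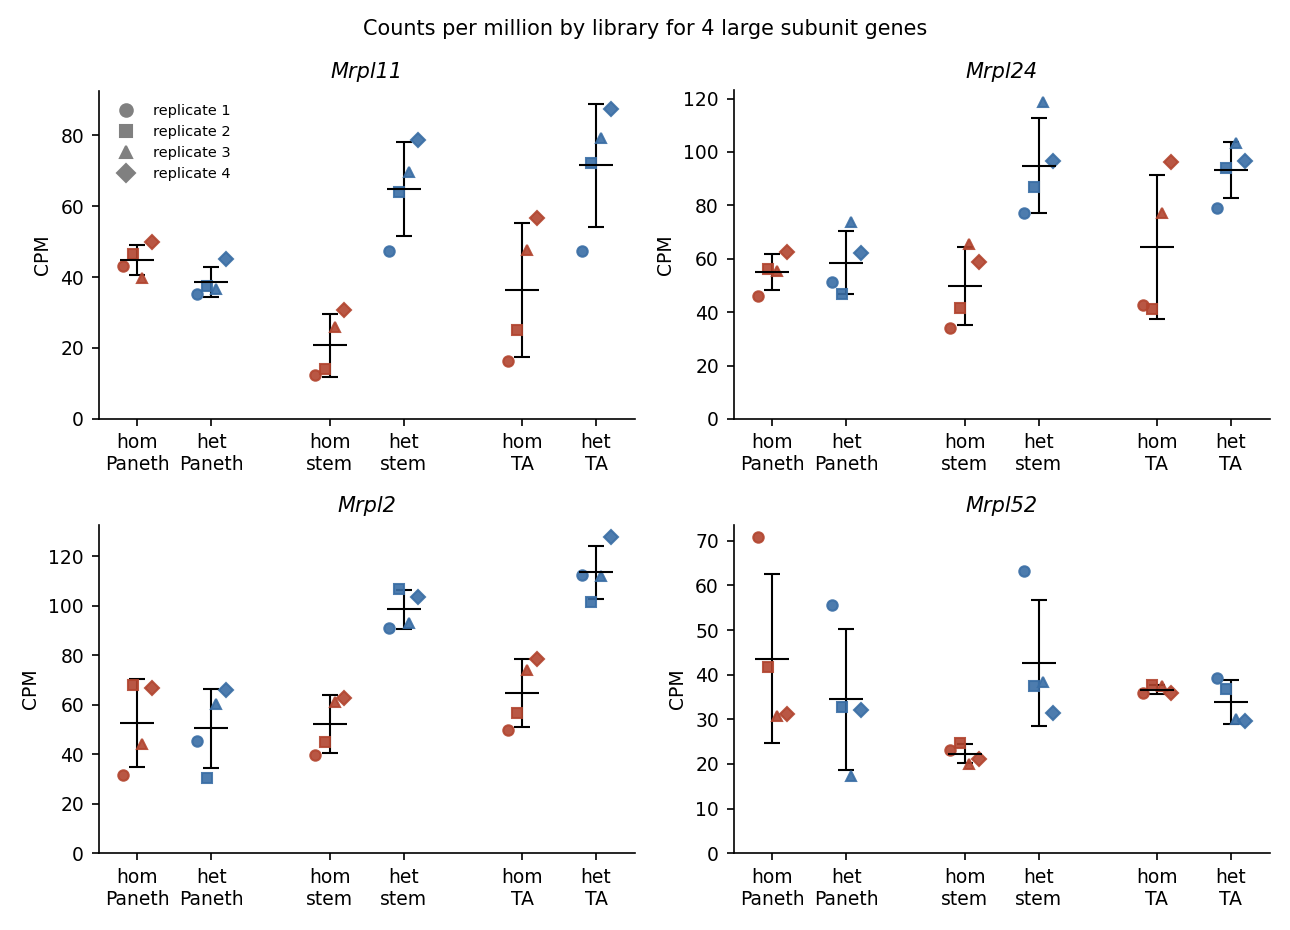
CPM of Mrpl11, Mrpl24, Mrpl2 and Mrpl52, 1 point per library, with mean and SD (n = 4 per group) and hom left of het in each fraction. Stem groups do not overlap for any of the 4 genes, TA groups do not overlap for Mrpl2, and Paneth groups overlap for all 4.

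In TA cells, 0 members passed the edgeR threshold in either direction (0% of 15925 genes both ways). At an unadjusted p below 0.05, 8 members were lower in hom (10.4%, against 3.03%) and 0 higher (2.83%), and DESeq2 called 2 lower, Mrpl2 and Mrpl10 (2.6%, against 0.399%), and 0 higher (0.253%). The 8 include Mrpl11, which was selected on these levels, so nothing is read from its part in the count. The sign was negative for 48 of 77 (62.3%, against 50% of all genes), and the median log2 fold change was -0.07, where that of all genes was 0.0003. Without the hom TA library of BN45 the median was 0.01, and without the het TA library of BN44 it was -0.16. Mrpl2 had 49.7, 56.6, 73.8 and 78.3 CPM in hom against 112, 102, 112 and 128 CPM in het TA libraries (-0.80, SE 0.16, edgeR adjusted p = 0.40; DESeq2 adjusted p = 0.0032). No hom library reached a het one. Mrpl10 had 57.1, 47.9, 62.7 and 52.9 CPM in hom against 103, 70.5, 84.6 and 75.02 CPM in het TA libraries (-0.58, SE 0.15, edgeR adjusted p = 0.54; DESeq2 adjusted p = 0.0496). Mrps5, whose bacterial counterpart acts in accurate decoding, had 22.9, 20.0, 17.6 and 23.0 CPM in hom against 39.4, 24.98, 37.2 and 29.5 CPM in het TA libraries (-0.64, SE 0.18, edgeR adjusted p = 0.60). The groups were apart for all 3 genes. Mrps2 averaged 50.8 ± 13.5 against 80.0 ± 13.0 CPM (-0.64, SE 0.20, adjusted p = 0.68), and its groups overlapped.

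Mrpl11 had 16.4, 24.97, 47.6 and 56.7 CPM in hom against 47.4, 72.0, 79.2 and 87.4 CPM in het TA libraries, a log2 fold change of -0.96, with the het library of BN44 inside the hom range. Mrpl24 averaged 64.3 ± 27.0 against 93.2 ± 10.3 CPM (-0.53), with the hom libraries of BN45 and BO25 at 42.7 and 41.2 CPM and that of BP04 at 96.3 CPM. Mrpl52 had 36.7 ± 1.02 CPM in hom and 33.9 ± 4.85 CPM in het TA libraries. Groups did not overlap for 5 members, all lower in hom (6.49%, against 2.19% of all genes), and for 0 higher (1.98%). These were Mrpl2, Mrpl10, Mrps5, Mrpl12 and Mrpl38, of which Mrpl12 and Mrpl38 are named for this alone, at 244 ± 8.57 against 273 ± 11.6 CPM and 45.8 ± 3.40 against 60.2 ± 7.48 CPM. The highest positive values were those of Mrps18c (94.0 ± 21.8 against 68.6 ± 19.3 CPM, 0.46), Mrps21 (0.35), Mrpl1 (0.30) and Mrpl14 (0.25), with edgeR adjusted p between 0.90 and 0.98.

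In Paneth cells, 0 members passed the edgeR threshold (0% of 16108 genes in each direction), 0 had an unadjusted p below 0.05 in either direction (1.37% of all genes lower, 0.9% higher), and DESeq2 called 0 (0.0684% lower, 0.0548% higher). The sign was negative for 24 of 77 (31.2%, against 50.4% of all genes), with a median log2 fold change of 0.08, where that of all genes was -0.003. Without the hom Paneth library of BP04 the median was -0.003. Groups did not overlap for 0 members (0.925% of all genes lower, 0.838% higher). Mrpl11 had 43.0, 46.4, 39.9 and 49.9 CPM in hom against 35.3, 37.4, 36.7 and 45.0 CPM in het Paneth libraries (0.21), and Mrpl24 averaged 55.0 ± 6.74 against 58.6 ± 11.9 CPM (-0.10). Mrpl2 had 31.7, 67.8, 44.1 and 66.6 CPM in hom against 45.1, 30.3, 60.3 and 65.7 CPM in het libraries, fully overlapping. Among the genes of smallest p, Mrpl33 averaged 50.4 ± 9.07 against 33.9 ± 13.1 CPM (0.57), Mrpl34 54.5 ± 11.7 against 39.5 ± 13.0 (0.46), Mrps18c 60.4 ± 7.73 against 44.3 ± 13.4 (0.44) and Mrpl14 56.8 ± 12.0 against 42.6 ± 12.6 CPM (0.41). On the negative side stood Mrps31 (-0.31), Mrps7 (-0.22), Mrps2 (-0.20) and Mrpl48 (-0.17). All 8 had an edgeR adjusted p of 1.00. Summed Paneth markers ran from 163853 to 845776 CPM in hom and from 68966 to 450344 CPM in het Paneth libraries, and the part of this composition in the values was not tested.

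Whether the knockout difference itself differed between fractions was tested in 1 fit of all 24 libraries. No member passed for stem against Paneth (0 of 77, where 0.00516% of 19396 genes were called lower and 0% higher), for TA against Paneth (the same percentages) or for stem against TA (0% each way). At an unadjusted p below 0.05 the counts of members lower were 7 (9.09%, against 3.23% of all genes) for stem against Paneth, 3 (3.9%, against 2.13%) for TA against Paneth and 1 (1.3%, against 2.39%) for stem against TA, with 0 higher in each (2.95%, 2.83% and 1.51%). The 7 include Mrpl11 and Mrpl24 and the 3 include Mrpl11. Both genes were selected on these levels, so these 2 counts are not independent of the selection. DESeq2 called 1 member lower for stem against Paneth (1.3%, against 0.147%), and 0 in the other 2 contrasts. That 1 member was Mrpl11, which was selected on these levels, so nothing is read from the count. The median difference between the log2 fold changes was -0.26 for stem minus Paneth (65 of 77 negative, 84.4%, against 49.7%), -0.21 for TA minus Paneth (59 negative, 76.6%, against 49.7%) and -0.09 for stem minus TA (51 negative, 66.2%, against 49.6%). For Mrpl52 the difference was -1.27 for stem minus Paneth (SE 0.40, edgeR adjusted p = 0.58) and -1.05 for stem minus TA (SE 0.40, adjusted p = 1.00). For Mrpl33 it was -1.12 for stem minus Paneth (SE 0.38, adjusted p = 0.62), and for Mrpl2 -0.88 for TA minus Paneth (SE 0.34, adjusted p = 0.94). Mrpl11 had -1.86 for stem minus Paneth, -1.19 for TA minus Paneth and -0.67 for stem minus TA, and Mrpl24 had -0.83, -0.44 and -0.39.

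Genes that work with the mitochondrial ribosome were followed in lists made with these results known. Apart from Dap3, the genes named from these lists were picked by a small p in a knockout comparison, so they do not stand for their lists. In all these lists edgeR called 0 genes in any knockout comparison, and counts at an unadjusted p below 0.05 are given where they were above 2. Among 5 ribosomal proteins under other symbols, 2 were negative in stem cells (median 0.02), 1 in TA cells (median 0.08) and 1 in Paneth cells (median 0.24). Dap3, a small subunit GTPase, stood at 123 ± 11.1 CPM in hom and 121 ± 2.71 CPM in het stem libraries. Ptcd3 was higher in hom stem libraries, at 152 ± 19.7 against 122 ± 9.44 CPM (0.31, SE 0.13, edgeR adjusted p = 0.73). Of 20 genes that charge mitochondrial tRNAs, 14 in stem cells were negative with a median of -0.30, and 7 had an unadjusted p below 0.05, all lower, where 4.02% of all genes were lower at that level and 49.5% were negative. In TA cells 18 of 20 were negative with a median of -0.42, again with 7 lower at that level (3.03% of all genes lower, 50% negative), and in Paneth cells 8 of 20 were negative with a median of 0.07. Fold changes in this list ran from -1.98 to 0.50 in stem cells. Picked by p there were Gatb, a subunit of the amidotransferase that makes glutaminyl-tRNA (7.36 ± 4.49 in hom against 28.9 ± 7.58 CPM in het, -1.98, SE 0.39, edgeR adjusted p = 0.17), Ears2, the glutamyl-tRNA synthetase (4.21 ± 1.86 against 13.1 ± 3.24 CPM, -1.64, SE 0.33, adjusted p = 0.18), and Iars2, the isoleucyl-tRNA synthetase (33.1 ± 2.76 against 59.8 ± 11.2 CPM, -0.86, SE 0.17, adjusted p = 0.16). Of 25 assembly genes, 18 were negative in stem and in TA cells with medians of -0.15 and -0.17, and 5 and 4 were lower at that unadjusted level, where 4.02% and 3.03% of all genes were. Among them Mtg1, a GTPase of large subunit assembly, had 12.9 ± 4.91 against 26.5 ± 1.17 CPM in stem cells (-1.05, SE 0.25, adjusted p = 0.26) and 16.8 ± 2.79 against 29.4 ± 4.34 CPM in TA cells (-0.80, SE 0.18, adjusted p = 0.47), and Gtpbp10, also a GTPase of large subunit assembly, 28.4 ± 4.42 against 50.2 ± 9.43 CPM in stem cells (-0.83, SE 0.19, adjusted p = 0.23). Tfb1m, which methylates the small subunit RNA, had 5.02 ± 1.43 against 10.8 ± 2.73 CPM in stem cells (-1.12, SE 0.28, adjusted p = 0.30). Of 15 translation factors tested, 10 were negative in stem cells (median -0.18) and 11 in TA cells (median -0.10), and in stem cells 3 were lower and 1 higher at that unadjusted level (4.02% of all genes lower, 2.77% higher). Of 15 regulators of mitochondrial transcription, 8 were negative in stem cells (median -0.07) and 7 in TA cells (median 0.02). The genes encoded by mitochondrial DNA had 16 of 28 negative in stem cells (median -0.07) and 9 of 30 in TA cells (median 0.21).

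For Paneth over TA cells the 5 ribosomal proteins under other symbols had medians of -0.64 in hom and -0.84 in het animals, with 2 called lower in each (12.4% of all genes in hom and 11.9% in het), Dap3 and Ptcd3, which were named after their values were seen. Ptcd3 had 56.0 ± 21.8 CPM in hom Paneth against 143 ± 8.28 CPM in hom TA libraries (-1.35, SE 0.26, edgeR adjusted p = 0.0048) and 46.9 ± 22.2 against 126 ± 8.22 CPM in het animals (-1.40, SE 0.33, adjusted p = 0.011). The assembly list had medians of -0.53 in hom and -0.81 in het animals with 5 of 25 called lower and 2 higher in hom and 8 lower and 0 higher in het, and the tRNA charging list -0.37 and -0.77, with 2 of 20 lower and 1 higher in hom and 9 lower and 1 higher in het. Of all genes, 12.4% were called lower and 16.4% higher in hom animals, and 11.9% lower and 17.4% higher in het animals, so the tRNA charging list in hom animals was near the background. The medians of the genes encoded by mitochondrial DNA were 0.04 in hom, with 3 of 30 called lower, and -0.06 in het animals, with 0 of 28 lower and 1 higher.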

How the data were processed

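RNA-seq counts of 24 libraries from 8 mice were used, in 6 groups of 4 separate animals. Per the file headers, the authors counted fragments per gene with featureCounts 2.0.1 on Ensembl gene models of mm10, without strand, and deposited raw counts with nothing pooled. Multi-mapping and overlapping fragments were not assigned, per the file headers. The submitters' processing notes also name bcl2fastq 2.20.0, and the aligner version was not given in the sources used here. Per the labels, cDNA was amplified for 17 cycles without molecular identifiers, so duplicates are included. Totals ran from 24.73 to 47.05 M counts, and counting error was not compared with the spread between animals.

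Genes were tested with edgeR 4.0.16 (TMM scaling, filterByExpr, robust quasi-likelihood test, R 4.3.3), with Benjamini-Hochberg adjustment over all genes tested and a threshold of 0.05. Only the 2 groups compared entered a fit, and all 24 libraries entered the tests of a difference between fractions. CPM values use TMM-scaled library sizes, and RPKM divides them by the exon bases in the file. DESeq2 1.42.0, other scalings (RLE, upper quartile), no filter, a mean of at least 5 CPM, blocks and leaving out each library were the alternatives. The fits were also run on simulated counts with known changes, a common mean per gene over all libraries and a common dispersion. That simulation had no animal effects and no composition differences between fractions, so it does not cover the pairing or the Paneth libraries. Symbols came from GENCODE and RefSeq tables, and promoters from RefSeq.

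Members, lists and tests were chosen with earlier results of these data known. Genes named were those past the threshold (at most 8 per direction, by p), otherwise the 4 per direction with the smallest p, the 5 highest and 5 lowest by RPKM, those with a library standing apart, and those whose symbols hide their place. In hom fractions and in tests between fractions, genes named for the het or genotype comparison were named if they passed, otherwise the 3 with the smallest p. Each animal gave 1 library per fraction, so fractions are paired: same-animal deviations correlated at 0.14 to 0.44 between stem and TA libraries, at -0.04 to 0.21 between Paneth and stem and at 0.03 to 0.20 between Paneth and TA libraries. The main fits have no block.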

Additional observations from a re-analysis of the deposited data

Results flagged for a closer look

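Sets of 4 libraries were examined for 1 gene, or for the summed share of member counts, in 1 group. In 13 of 258 sets, 1 library stood apart from the other 3 by more than Dixon's 95% critical value. Chance gives about 1 in 20, or 12.9. In hom Paneth libraries, BN45 was low for Mrps30 (23.38 CPM, others 49.96 to 54.65), Mrps28 (39.6, others 57.23 to 60.08), Mrpl34 (36.97, others 58.61 to 62.12) and Mrpl48 (33.08, others 40.82 to 41.13), and BO25 was high for Mrpl12 (126 CPM, others 80.26 to 85.47). In het Paneth libraries, BO58 was low for Mrpl33 (14.29 CPM, others 38.63 to 41.57) and BN44 for Mrpl9 (37.73, others 48.51 to 50.26). In hom stem libraries, BO57 was high for Mrps7 (132.4 CPM, others 110.3 to 113.7) and Mrps27 (75.16, others 64.7 to 66.37), and BO25 for Mrps26 (39.2, others 33.54 to 34.41). In hom TA libraries, BP04 was high for Mrpl28 (333.1 CPM, others 218.9 to 230.6), and in het TA libraries BN44 was low for Mrps24 (82.28, others 156.3 to 163.1) and Mrps28 (59.24, others 121.9 to 131.7).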

How the results depend on the processing

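Without a block edgeR called 0 members in each knockout comparison. Of the other settings, a mean of at least 5 CPM called 1 lower in stem cells, and DESeq2 called 4 lower in stem cells, 2 in TA cells and 1 for the stem minus Paneth difference. Both counts of 1 are Mrpl11, and the 4 include Mrpl11 and Mrpl24, which were selected on these levels. With a replicate block that pairs animals by neighbouring ID, 0 members were called in any knockout comparison. That pairing rests on the IDs alone: same-pair deviations correlated at -0.01 to 0.30 in Paneth, 0.07 to 0.36 in stem and 0.10 to 0.35 in TA libraries, and 3, 3 and 4 of 4 pairs correlated best with their own partner. For stem against TA libraries, the count lower was 2 with a mean of at least 5 CPM, 18 with the animal as replicate block and 3 with DESeq2 in hom animals, and 2 with RLE, 0 with no filter, 12 with the replicate block and 5 with DESeq2 in het animals. Members higher in hom Paneth than stem cells were 5 with a mean of at least 5 CPM and 4 with DESeq2.

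Leaving out 1 library at a time gave 25 to 40 (hom) and 30 to 55 (het) members lower in Paneth than TA cells, 15 to 22 (hom) and 15 to 33 (het) lower and 1 to 3 (hom) higher in Paneth than stem cells, and 0 to 2 (hom) and 0 to 1 (het) lower in stem than TA cells. With mitochondrially encoded genes taken out of the total, the mean share in stem libraries was 0.885% (hom) and 1.01% (het), and in TA libraries 1.06% (hom) and 1.11% (het). Without the 10 most abundant genes it was 0.608% (hom) and 0.566% (het) in Paneth, 0.939% (hom) and 1.05% (het) in stem, and 1.08% (hom) and 1.14% (het) in TA libraries.

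Of the named genes' values under alternatives, 1330 were counted as unchanged, 13 passed only there, 12 no longer passed and 17 changed sign, all 17 in het Paneth comparisons near 0. Unchanged means the same direction and side of the threshold. For Mrpl11 and Mrpl24, which were not tested, it means a value within the SE of the main fit. Mrpl52 over TA was -0.020 with no filter, -0.059 with the replicate block and -0.29 to 0.26 without 1 library. Over stem, Mrps24 was -0.048 with upper quartile scaling, -0.026 with no filter and -0.14 to 0.26 without 1 library. Mrpl43 was -0.064 with upper quartile scaling, -0.038 with no filter, -0.0021 with the replicate block and -0.17 to 0.096 without 1 library, and Mrpl54 was -0.038 to 0.31 without 1 library. The cause was not tested for any of these changes.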
